A study of Mus musculus with 29 samples.

Results

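The paternally methylated imprinting control regions of the mouse carry DNA methylation that comes from sperm and lie next to imprinted genes. The loci described here are the H19 locus with its control region on chromosome 7, the region between Dlk1 and Meg3 with the Meg3 promoter on chromosome 12, and the region upstream of Rasgrf1 on chromosome 9. They were followed as 3 windows that were set by mm9 coordinates, not by any measured value, and that were divided into 47 bins of 1 kb (12 at H19, 25 at Dlk1-Meg3 and 10 at Rasgrf1). The deposited calls listed 125 CpGs in them (34, 80 and 11) of 2904855 CpGs in the series. A bin was read in a library when its CpGs together held at least 10 reads, and 9 bins met this in all 29 libraries: 3 at H19, 5 at Dlk1-Meg3 and 1 at Rasgrf1.

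The study asked what lengthy suppression of the kinases Mek1 and Mek2 does to mouse embryonic stem cells (ESCs), and measured CpG methylation with RRBS, a bisulfite method that samples the genome near restriction sites. The 3 male ESC lines, named J with the numbers 34, 35 and 37, entered each medium at passage 4. S/L medium, taken as serum with LIF, was used for 6 passages (S/L p10, 3 libraries) or 16 passages (S/L p20, 3 libraries). 2i/L, taken as LIF with the Mek inhibitor PD and the Gsk3 inhibitor CHIR, was used for the same times (2i/L p10 and 2i/L p20, 3 libraries each). After 16 passages in 2i/L, cells went back to S/L for 3 passages (2i/L to S/L p23, 3 libraries) or 10 passages (2i/L to S/L p30, 2 libraries). The media a2i/L and PKCi/L, whose composition the labels do not spell out, gave 1 library each at p10 and 2 libraries each at p20. Line J-34 was also kept in CHIR alone or in PD alone for 6 passages (1 library each). MEK DKO was 1 library of induced pluripotent stem cells in S/L, from Mek1 fl/fl; Mek2-/- fibroblasts that were reprogrammed with a doxycycline-inducible Oct4, Klf4, Sox2 and c-Myc cassette, cloned, treated with Cre and kept on feeder cells; it is not a J line, has no control of its own genotype without Cre, and is read beside the J lines only as values. Neonatal mouse keratinocytes gave 1 library labelled wild-type (female) and 2 labelled 2i/L (male); the labels do not say what 2i/L means for a keratinocyte.

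An imprinting control region is methylated on the copy from one parent and unmethylated on the copy from the other, and the mark is normally kept through cell division. At H19, the unmethylated maternal region binds CTCF and keeps enhancers from Igf2, while the methylated paternal copy permits Igf2, which encodes a growth factor, and silences the non-coding RNA gene H19. At Dlk1-Meg3, paternal methylation goes with expression of Dlk1, a transmembrane Notch-like ligand, and silence of the non-coding RNA gene Meg3. At Rasgrf1, a Ras exchange factor gene, the methylated paternal copy is the expressed one. Reads were not assigned to a parent here, so each level below is a mean over both copies and all cells of a library.

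The Meg3 promoter was the one promoter of the 3 loci whose RefSeq sequence could be placed among the listed CpGs. It is given because its level can be read directly, and the capitals mark the 4 CpGs, of 13 in the sequence, that the files list. RefSeq places it on the plus strand of GRCm38.p6 at chr12:109540746-109541045, and the spacing of the CpGs put it at chr12:110778956-110779255 in the mm9 coordinates of the files.
Meg3 promoter: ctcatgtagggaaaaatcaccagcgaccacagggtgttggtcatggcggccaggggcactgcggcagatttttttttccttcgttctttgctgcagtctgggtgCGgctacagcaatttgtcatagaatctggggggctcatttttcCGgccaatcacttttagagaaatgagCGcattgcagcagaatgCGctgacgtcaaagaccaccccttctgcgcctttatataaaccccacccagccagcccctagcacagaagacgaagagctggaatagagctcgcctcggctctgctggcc
The 4 CpGs stand at positions 105, 148, 174 and 191 of the 300 bases, counted from the 5′ end. The placement asked for at least 4 CpGs inside the window with every listed CpG of the span explained, a rule chosen after the CpGs were seen. All 4 fall in 1 of the bins described below.

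Coverage left gaps in every window. At H19, the bins with 10 reads in all libraries were chr7:149761001-149762000 (H19 bin 1; 4 CpGs, 23 to 78 reads per library), chr7:149764001-149765000 (bin 2; 12 CpGs, 25 to 119 reads) and chr7:149767001-149768000 (bin 3; 7 CpGs, 20 to 63 reads). The bin chr7:149762001-149763000 reached 10 reads in 16 libraries, 3 more bins held a CpG but never 10 reads, and 5 of 12 had no listed CpG. Among the 25 Dlk1-Meg3 bins, those read in all libraries were chr12:110763001-110764000 (bin 1; 2 CpGs), chr12:110764001-110765000 (bin 2; 9 CpGs), chr12:110778001-110779000 (bin 3; 9 CpGs), chr12:110779001-110780000 (bin 4; 13 CpGs) and the last bin, which starts at chr12:110784001 (bin 5; 11 CpGs). The first bases of the Meg3 promoter lie in bin 3 and the rest, with all 4 of its listed CpGs, in bin 4. The next bin, chr12:110780001-110781000, was read in 28 libraries, 5 others were read in 1 to 17, 6 never reached 10 reads and 8 had no listed CpG. These 8 include the run chr12:110769001-110773000, where the window holds no value at all. The Rasgrf1 window rested on chr9:89769001-89770000 (12 to 65 reads), with chr9:89772001-89773000 read in 18 libraries and chr9:89773001-89774000 in 6. The rest of that window, including all 4 bins from chr9:89774001 to its end, had no listed CpG except 1 bin that never reached 10 reads. No annotation in mm9 was used, so apart from the Meg3 promoter no bin was assigned to a control region, exon or intron, and a window level is not the level of its control region.

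Library totals ran from 8359713 to 22432470 reads summed over 1305362 to 1952447 listed CpGs. Reads in neighbouring CpGs can come from 1 fragment and no molecular identifiers were given, so the intervals below cover counting error only and are too narrow. Read depth over chromosome 1 sorted the 26 stem cell libraries into 3 coverage sets: the p10, CHIR, PD and MEK DKO libraries (11), the p23 libraries with those of S/L and 2i/L at p20 (9), and the p30, a2i/L p20 and PKCi/L p20 libraries (6). Comparisons of p20 with p10, and of p30, a2i/L p20 or PKCi/L p20 with S/L p20, run across sets, so there set and group cannot be told apart. One p30 library is titled J-35, while its cell type and protocol say J-34; it is called the first p30 library below. The lines are separate cultures, and p-values measure the spread between them.

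The window level, the share of methylated reads over the bins read in all 29 libraries, was lower in every 2i/L library than in every S/L library at H19 and Dlk1-Meg3. The order of other groups differed, and keratinocytes stood below both S/L means at H19 and above both at Dlk1-Meg3. At H19, S/L p10 stood at 74.1% ± 1.4 (SD, n = 3) and S/L p20 at 70.9% ± 0.90 (n = 3). It was 34.8% ± 2.4 (n = 3) in 2i/L p10 and 27.8% ± 14.3 (n = 3) in 2i/L p20. All 6 libraries from S/L thus lay between 70.0% and 75.2%, and all 6 from 2i/L between 19.4% and 44.3%. The returned cells stood at 63.9% ± 2.1 (n = 3) at p23 and 69.3% ± 4.8 (n = 2) at p30. At p20 the alternative media stood above both S/L means, with 77.2% ± 1.2 (n = 2) in a2i/L and 80.9% ± 3.9 (n = 2) in PKCi/L. Their single p10 libraries stood at 66.8% in a2i/L (Wilson 95% interval 59.8 to 73.2%), below every S/L library, and 75.0% in PKCi/L. A group's range ran from its lowest to its highest library, or over the Wilson 95% interval where it had 1 library. Of the 14 pairs of neighbours in the order of the 15 groups, 10 had overlapping ranges. The widest gap without overlap, 18.5 points, lay between the p23 cells and the wild-type keratinocytes at 45.5% (Wilson 95% interval 35.5 to 55.8%, 88 reads).

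**Figure D1:**
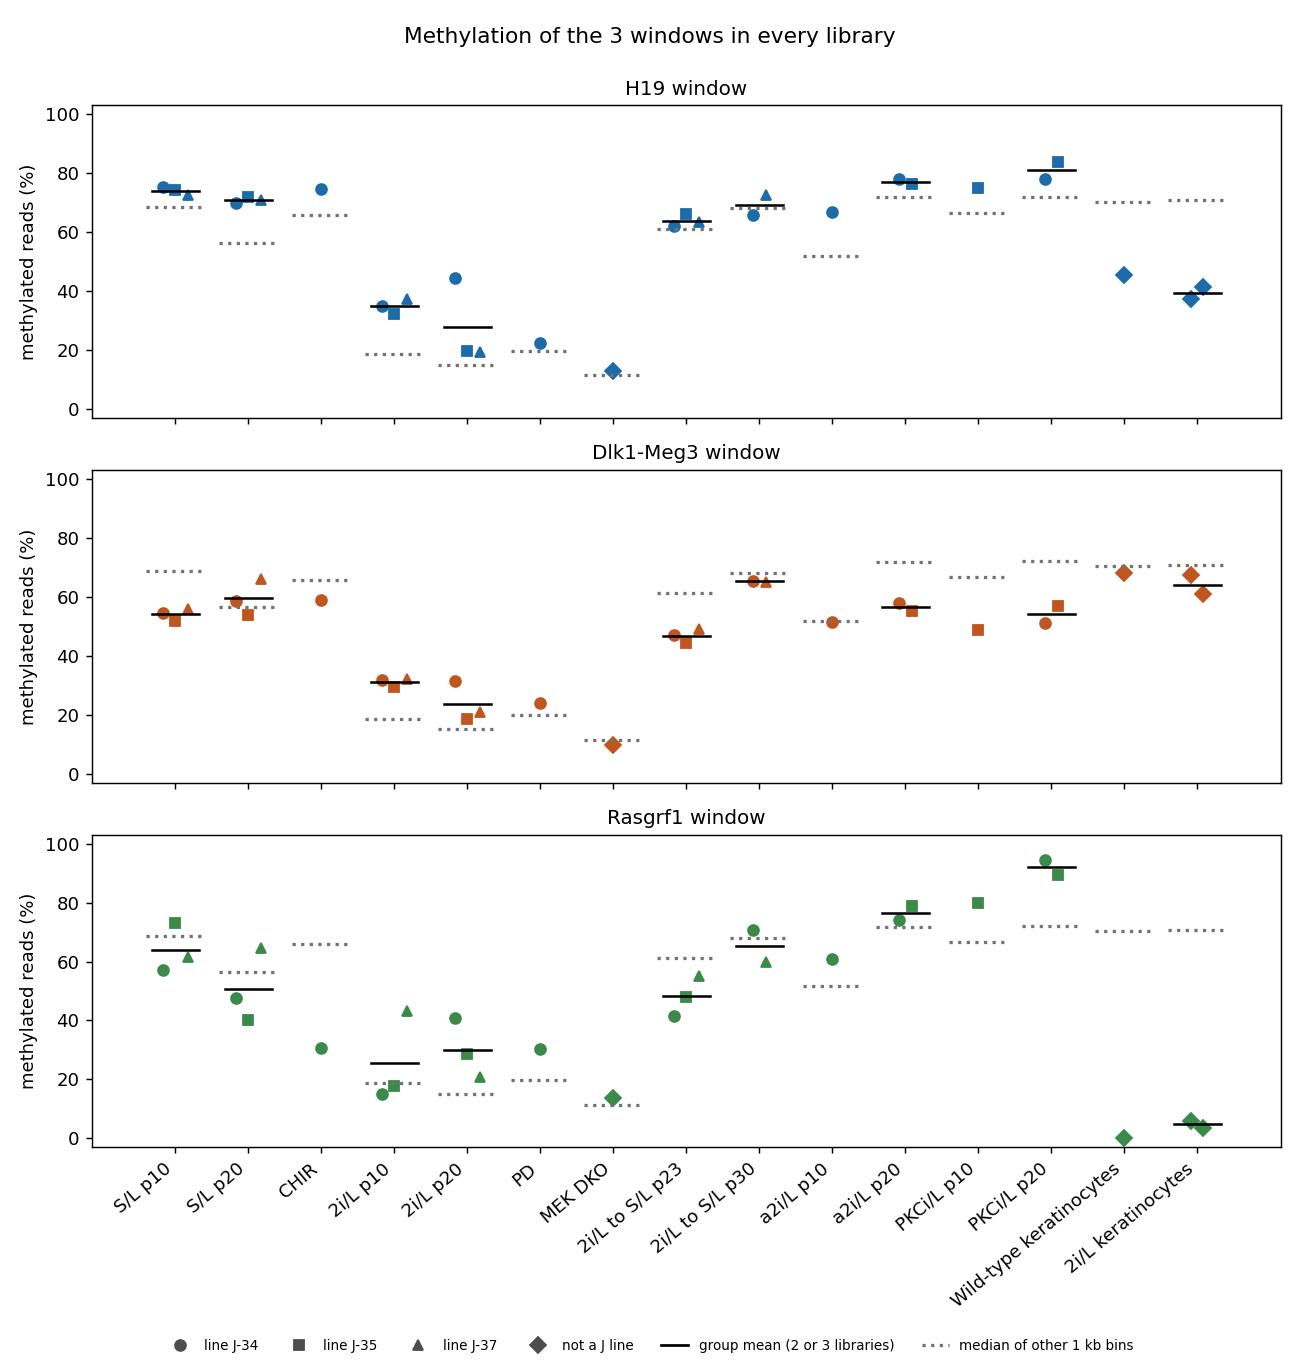
Share of methylated reads (%, vertical axis) in each library, by group (horizontal axis), in the 3 windows, with the group mean as a black bar and the mean over libraries of the median of 95540 other autosomal 1 kb bins as a dotted bar. At H19 the 6 libraries from 2i/L sit between 19.4% and 44.3%, below the 6 from S/L at 70.0% to 75.2%.

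In the Dlk1-Meg3 window the S/L levels were lower, 54.1% ± 2.2 (n = 3) at p10 and 59.4% ± 6.1 (n = 3) at p20. Those of 2i/L were 31.1% ± 1.4 (n = 3) and 23.6% ± 6.9 (n = 3). The p23 cells reached 46.8% ± 2.4 (n = 3), and both p30 libraries stood at 65.2%. Neighbours overlapped in 11 of 14 pairs, and the p23 cells and 2i/L p10 were 15.7 points apart without overlap. The 11 groups above that gap, from wild-type keratinocytes at 68.1% down to p23, formed a chain of overlapping ranges.

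The Rasgrf1 window, with its single bin, was noisier. S/L p10 measured 63.9% ± 8.2 (n = 3), S/L p20 50.7% ± 12.5 (n = 3), 2i/L p10 25.4% ± 15.5 (n = 3) and 2i/L p20 30.1% ± 10.2 (n = 3). PKCi/L p20 was the highest group, as at H19, with 91.9% ± 3.8 (n = 2). The keratinocytes were the lowest groups here and not in the other windows, with 0 of 12 reads methylated in the wild-type library. In 13 of 14 pairs the neighbours' ranges overlapped, so most of this order lies within these ranges, which for single libraries hold counting error only.

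For reference, the median of 95540 other autosomal bins read in all libraries was 68.7% ± 0.82 in S/L p10, 56.4% ± 1.2 in S/L p20, 18.6% ± 0.49 in 2i/L p10 and 15.1% ± 6.3 in 2i/L p20 (n = 3 each). The window means in 2i/L lay above these medians, although 2 of the 6 Rasgrf1 libraries in 2i/L did not: at p10, J-34 stood at 15.2% beside a median of 18.8% in its other bins and J-35 at 17.9% beside 18.1%.

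The first question was how methylation in the 3 windows differed in 2i/L. These bins are not known to be paternal marks. H19 bin 1 averaged 87.0% in S/L p10, above what methylation of 1 parental copy alone would give. Bins were compared with limma on the log2 ratio of methylated to unmethylated reads, each plus 1, fitted to 21 libraries and every bin with 10 reads in all libraries of the 2 groups compared. A bin was called with a Benjamini-Hochberg adjusted p under 0.05 over all bins and a difference of group means of at least 20 points. After 6 passages in 2i/L, 7 of 10 member bins tested fell against S/L p10 and 0 rose. Of all 122672 bins, 68.8% fell and 0.00163% rose by the same rule, so the count of members was close to the background. The members' median difference was -31.6 points beside -37.5 points for all bins.

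At H19 all 3 bins fell. H19 bin 1 measured 94.7%, 83.0% and 83.3% in S/L p10 (J-34, then J-35, then J-37, as in all sentences with 3 values) and 41.0%, 37.7% and 45.5% in 2i/L p10. The lowest S/L library stood far above the highest 2i/L library, a log2 ratio change of -3.13 (SE 0.58, limma adjusted p 3.33e-05). H19 bin 2 held 62.0%, 66.7% and 68.2% in S/L p10 against 24.6%, 20.5% and 29.8% in 2i/L p10 (adjusted p 0.000163). H19 bin 3 went from 72.0%, 71.8% and 63.0% to 40%, 37.8% and 38.2% (adjusted p 0.00208). The 3 lines lay close together in each bin under 2i/L, and no bin's groups overlapped.

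At Dlk1-Meg3 bins 1, 2 and 5 fell. Bins 3 and 4, which hold the Meg3 promoter, and the bin after them did not pass. Bin 5, at the far end of the window, measured 54.7%, 46.5% and 62.7% in S/L p10 and 20%, 9.26% and 24.1% in 2i/L p10 (adjusted p 7.19e-05). Bin 2 went from 67.9%, 66.1% and 66.7% to 27.4%, 51.3% and 41.7% (adjusted p 0.00522), with line J-35 keeping the most. Bin 1 averaged 50.7% and 17.8% (adjusted p 0.00228). Bin 3, next to the listed promoter CpGs of Meg3, held 50%, 45.2% and 50% in S/L p10 against 42.9%, 36.4% and 33.3% in 2i/L p10, a difference of -10.9 points that did not pass (adjusted p 0.234). Bin 4, with the 4 listed promoter CpGs, averaged 42.5% and 23.7% (adjusted p 0.0618; called without line J-34 in 2i/L p10, adjusted p 0.0214, and with only CpGs listed in every library, 0.0424). The bin after it averaged 59.5% and 39.5% (adjusted p 0.0984). In each of these 3 bins every 2i/L library lay below every S/L library. How often this held over all bins was not computed, so it is not read as particular to them.

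The Rasgrf1 bin fell from 57.1%, 73.1% and 61.5% to 15.2%, 17.9% and 43.3% (log2 ratio change -2.32, SE 0.55, adjusted p 0.000463). J-37 kept more than the other lines, and the groups did not overlap.

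After 16 passages 10 of 11 member bins tested were lower in 2i/L p20 than in S/L p20, beside 69.4% of all 159124 bins lower and 0.00503% higher. The members' median difference was -40.1 points and that of all bins -40.4 points. Dlk1-Meg3 bins 3 and 4, which hold the Meg3 promoter, and the bin after them were now among those called. H19 bin 1 measured 85.7%, 81.2% and 79.5% in S/L p20 and 49.1%, 17.6% and 11.8% in 2i/L p20 (log2 ratio change -3.72, SE 0.58, adjusted p 5.43e-06). J-34 stood above both other lines in 2i/L. H19 bin 2 gave 56.5%, 70.5% and 63.6% against 45.1%, 19.6% and 27.0% (adjusted p 0.00113), and bin 3 gave 68.8%, 60% and 76.7% against 34.4%, 22.9% and 13.3% (adjusted p 1.95e-05). J-34 was the highest 2i/L p20 library in all 3 H19 bins. The fourth H19 bin, read in all 6 libraries, averaged 81.6% and 31.2% (adjusted p 0.000409).

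At Dlk1-Meg3 after 16 passages, bin 2 measured 72.5%, 67.2% and 73.3% in S/L p20 against 35.1%, 23.4% and 25.3% in 2i/L p20 (adjusted p 4.93e-05). Bin 3 measured 62.5%, 55.6% and 68.8% against 42.2%, 23.5% and 30.7% (adjusted p 0.00136). Bin 5 measured 48.4%, 49.4% and 46.3% against 18.7%, 18.5% and 12.4% (adjusted p 0.000265). The groups did not overlap in any of them. Bin 1 averaged 58.7% and 11.9% (adjusted p 7.84e-05), bin 4 59.0% and 18.9% (adjusted p 0.000422) and the bin after it 68.8% and 32.5% (adjusted p 0.00266).

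The Rasgrf1 bin was the member that did not pass at p20. It held 47.6%, 40% and 64.5% in S/L p20 and 40.9%, 28.6% and 20.7% in 2i/L p20, with overlapping groups (log2 ratio change -1.18, SE 0.55, adjusted p 0.0533). Over 14 alternatives its adjusted p ran from 0.0233 to 0.237 and it was called in 4, including those without line J-35 in S/L p20 and without line J-34 in 2i/L p20. The change of the 2i/L effect between p10 and p20 was tested as an interaction in the same fit, and the smallest adjusted p among the 10 members was 0.598, at Dlk1-Meg3 bin 3.

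**Figure D2:**
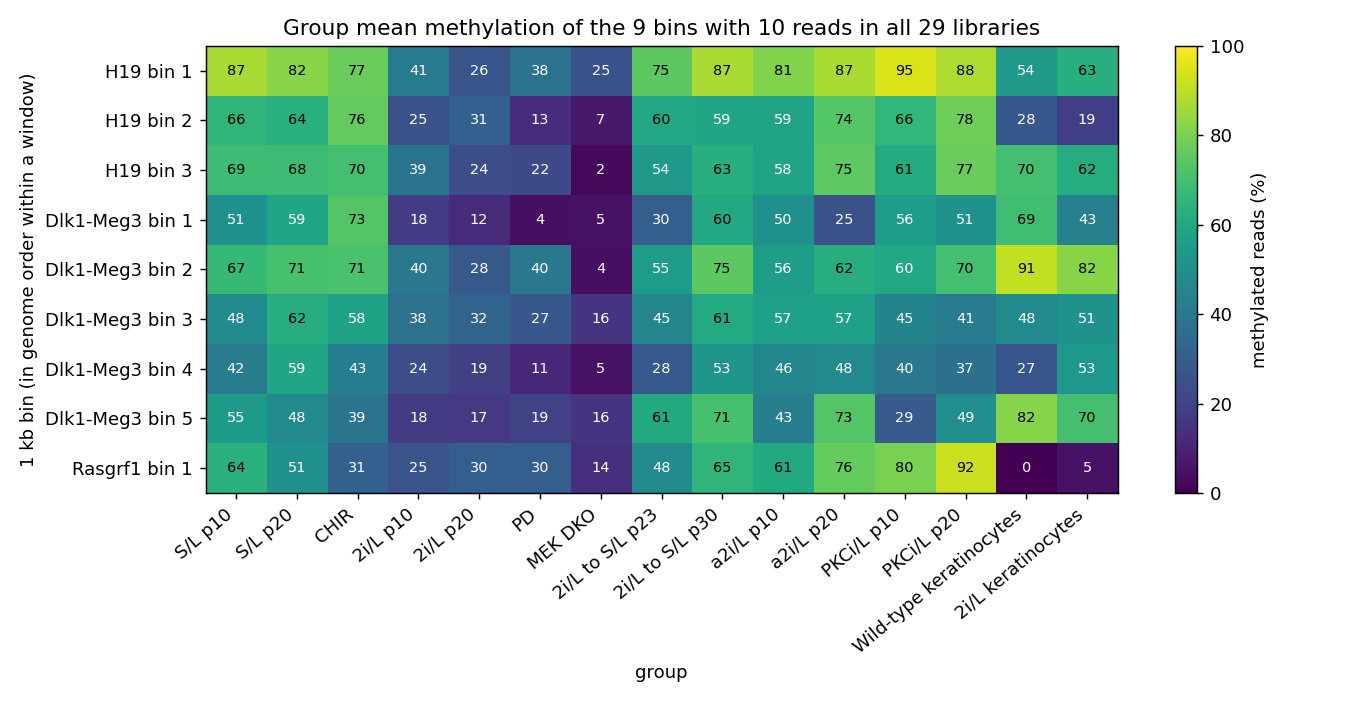
Group mean share of methylated reads (%, colour and printed value) in the 9 bins read in all 29 libraries (rows, in genome order within a window) for the 15 groups (columns). The 2i/L, PD and MEK DKO columns are below both S/L columns in every row, and the Rasgrf1 row is highest in PKCi/L p20 and lowest in the keratinocytes.

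The window levels gave the same directions with far less power. Across 30 window comparisons no exact two-sided permutation p could fall below 0.1 with 3 libraries against 3 or 3 against 2, or below 0.333 with 2 against 2, and the smallest Benjamini-Hochberg adjusted value was 0.214. Within lines, the H19 window in 2i/L p10 minus that in S/L p10 was -40.3, -42.0 and -35.4 points in J-34, J-35 and J-37. At p20 those differences were -25.7, -52.1 and -51.5 points, the smallest in J-34, while at p10 the smallest was in J-37.

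Between p10 and p20 in the same medium no member passed the rule, in comparisons that also run across coverage sets. For S/L p20 against S/L p10, 0 of 10 members were called, beside 0.00783% of all bins lower and 0.000783% higher. None had an unadjusted p under 0.05, beside 20020 of all 127637 bins. A quasi-binomial model on the read counts also called 0 members, beside 2601 lower and 6 higher of all bins. The H19 window differed by -3.18 points with no overlap between groups (exact permutation p 0.1, the smallest possible). For 2i/L p20 against 2i/L p10, 0 of 10 were called, beside 0.0755% of all bins lower and 0.000748% higher. The quasi-binomial model called 0 members here, beside 3808 lower and 8 higher of all bins. In limma 1 member, H19 bin 3, had an unadjusted p under 0.05 (mean 23.5% and 38.7%, adjusted p 0.318), beside 20249 of all 133714 bins. Line J-34 decided part of this: without its 2i/L p20 library, H19 bin 1 averaged 14.7% against 41.4% and passed (adjusted p 0.0413). In that library the H19 window stood at 44.3% against 19.7% and 19.4% in J-35 and J-37, and the median of the other bins at 21.6% against 14.7% and 8.99%.

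The next question was whether methylation came back once 2i/L was removed. At 3 passages after the return, 9 of 14 member bins tested were higher in the p23 cells than in 2i/L p20 and 0 were lower, beside 75.1% higher and 0.000604% lower of all 165499 bins. The members' median gain was 30 points against 42.3 points for all bins. Every H19 bin tested gained. H19 bin 1 measured 77.6%, 81.2% and 65.4% in the p23 cells (adjusted p 2.94e-05), bin 2 53.3%, 62.5% and 65.7% (adjusted p 0.00242) and bin 3 55.9%, 48.6% and 56.7% (adjusted p 0.000972). Each p23 library lay above each 2i/L p20 library in these bins. The fourth H19 bin averaged 75.2% (adjusted p 0.00166).

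At Dlk1-Meg3, 4 bins gained, and bins 1, 3 and 4 and the bin after bin 4 did not pass. Bin 5 rose to 52.9%, 67.9% and 61.8% (log2 ratio change 2.92, SE 0.49, adjusted p 1.09e-05), and bin 2 to 63.8%, 42.0% and 60.4% (adjusted p 0.0035). The bins starting at 110782001 and 110783001 rose to averages of 75.7% and 70.1% from 39.2% and 39.9% (adjusted p 0.00321 and 0.0361); the second lost its call in 5 of its alternatives. Bin 3 stood at 50%, 41.1% and 44.9% (adjusted p 0.116), bin 4 averaged 28.3% (adjusted p 0.208), and the bin after it averaged 49.1% (adjusted p 0.13). Bin 1 averaged 30.4%, a gain of 18.5 points that missed the 20-point rule (adjusted p 0.0323). Bin 4 was the smallest gain of the 14, 9.37 points.

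At Rasgrf1 the main bin stood at 41.7%, 47.8% and 55.2% in the p23 cells, above each 2i/L p20 library but not called (adjusted p 0.0828; called without line J-34 in 2i/L p20, adjusted p 0.0362). The neighbouring bin at chr9:89772001-89773000, tested in this comparison only, rose from 10.0%, 5.0% and 5.0% to 41.7%, 46.2% and 64.3% (log2 ratio change 3.03, SE 0.54, adjusted p 3.98e-05). This bin lists 3 CpGs, 1 of them with only 2 reads over all 29 libraries, and held 10 to 20 reads per library here.

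Set against cells that never saw 2i/L, 0 of 11 members of the p23 cells were called, beside 0.357% of all bins lower and 0.338% higher than S/L p20. The members' median difference was -14.8 points and that of all bins 0.80 points. Of the 11, 10 had a lower mean in the p23 cells. In 5 every p23 library lay below every S/L p20 library, and in 1 above. These shares were not computed over all bins, so they are not read as particular to the members. Those with an unadjusted p under 0.05 were 3, all lower: Dlk1-Meg3 bins 1, 3 and 4. Of all 163015 bins, 23963 had an unadjusted p under 0.05 in either direction. Bin 4 was the farthest, with 25.4%, 26.0% and 33.3% in the p23 cells and 56.5%, 47.1% and 73.3% in S/L p20 (adjusted p 0.157). The quasi-binomial model called that 1 bin (adjusted p 0.00133), beside 2035 lower and 3886 higher of all 163015 bins. Bin 5 was the exception in direction, averaging 60.9% against 48.0% (adjusted p 0.512).

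At 10 passages after the return no member was called against S/L p20, 0 of 10, beside 0.121% of all bins lower and 2.99% higher. H19 bin 1 measured 88.9% in the first p30 library and 85.4% in J-37, bin 2 49.2% and 69.2%, and bin 3 65.2% and 60%. Dlk1-Meg3 bin 4 stood at 53.8% and 51.9%, within the range of S/L p20. Bin 5 stood at 65.5% and 76.2%, above all 3 S/L p20 libraries. It was the 1 member with an unadjusted p under 0.05 (limma adjusted p 0.169), beside 25529 of all 141997 bins. It was also the 1 member called higher by the quasi-binomial model (adjusted p 0.0235), beside 7517 higher and 252 lower of all bins. The Rasgrf1 bin stood at 70.8% and 60% (adjusted p 0.534).

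Imprinted promoters methylated on the maternal copy gave another course over the same libraries than the windows. Whether the bins of the windows are themselves imprinted marks was not tested. Of the maternally methylated promoters searched, those of Zrsr1, a retrogene related to a splicing factor gene, and Plagl1, a zinc finger gene, were placed by 8 and 17 listed CpGs. Zrsr1 went from 35.2% ± 7.5 in S/L p20 to 6.45% ± 4.9 after 2i/L at p20 and 7.53% ± 7.5 in the p23 cells (n = 3 each). Plagl1 held 44.4% ± 10.3, 6.52% ± 6.3 and 4.62% ± 3.6 (n = 3 each). At p30 both were near 0 in J-37 (0 of 84 reads at Zrsr1, which allows up to 3.57%, and 0.637% at Plagl1) and at 22.2% and 20% in the first p30 library. The H19 window minus the Zrsr1 promoter averaged 56.4 points in the p23 cells and 21.3 points in 2i/L p20, without overlap (exact two-sided permutation p 0.1, the smallest possible). Over 12 such differences, for 3 windows, 2 promoters and p23 against 2i/L p20 or S/L p20, the windows stood higher relative to the promoter at p23 in all 12; 11 had p 0.1 (adjusted 0.109), and Rasgrf1 minus Zrsr1 against 2i/L p20 overlapped (p 0.2). These tests were added after the levels were seen, and the 12 differences share libraries. They were not run for other bins, so the count is not read as particular to the windows. The median difference of all bins at p23 was 42.3 points against 2i/L p20 and 0.80 points against S/L p20.

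**Figure D3:**
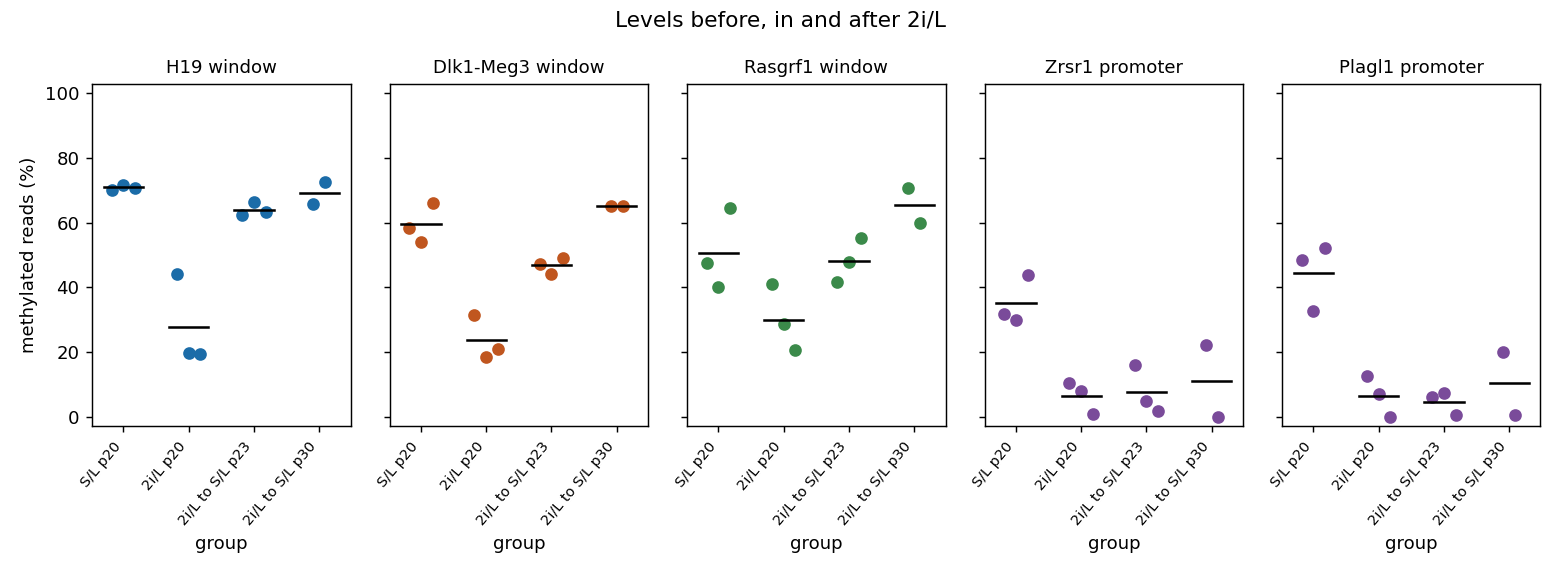
Share of methylated reads (%, vertical axis) in each library of S/L p20, 2i/L p20 and the cells returned to S/L (horizontal axis), with group means as bars, for the 3 windows and the Zrsr1 and Plagl1 promoters. The 3 H19 p23 libraries sit between 62.2% and 66.3%, while the Plagl1 promoter stays at or below 7.27% in the same libraries.

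The other inhibitor media were compared with S/L at p20. In a2i/L p20, 0 of 10 members were called, beside 0.186% of all bins lower and 5.86% higher. Of these members, 3 had an unadjusted p under 0.05, beside 35777 of all 147256 bins, so the count was close to the background. The Rasgrf1 bin was at 74.1% and 78.7% (adjusted p 0.11) and Dlk1-Meg3 bin 5 at 74.3% and 72.2% (adjusted p 0.089), each above all S/L p20 libraries. The quasi-binomial model called both higher, beside 11006 higher and 397 lower of all bins. Dlk1-Meg3 bin 1 was at 28.6% and 21.2%, below all S/L p20 libraries (adjusted p 0.0643); with bins shifted by 500 bases the bin starting at 110763501, which takes in part of bin 1 and part of bin 2, was called lower (mean 24.1% against 54.8%, adjusted p 0.0397). H19 bins 1, 2 and 3 averaged 87.2%, 73.5% and 75.2%, with adjusted p of 0.52 or more.

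In PKCi/L p20, 1 of 10 members was called, the Rasgrf1 bin, which was higher, beside 5% of all bins higher and 0.0768% lower. It stood at 94.6% (35 of 37 reads) and 89.2% (58 of 65) against 47.6%, 40% and 64.5% in S/L p20 (log2 ratio change 3.19, SE 0.62, limma adjusted p 0.00353). It was called in all 14 alternatives that tested it, with adjusted p from 0.000384 to 0.0471. The 2 groups lie in different coverage sets, and 1 of the 4 CpGs of the bin, at position 89769488, was listed only in the set with PKCi/L p20 and in the keratinocytes. With only CpGs listed in every library the means were 89.1% and 50.3% (adjusted p 0.01). At the CpG at 89769450, 20 of 24 pooled reads were methylated in PKCi/L p20 and 12 of 33 in S/L p20; at 89769529 the counts were 28 of 30 and 27 of 43.

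Within a coverage set PKCi/L was again the highest at this bin. At p10 the Rasgrf1 bin measured 80.0% in PKCi/L (20 of 25 reads, Wilson 95% interval 60.9 to 91.1%), 60.7% in a2i/L (42.4 to 76.4%) and 57.1% to 73.1% in S/L. Among the libraries of the third set, PKCi/L p20 lay at 89.2% to 94.6%, a2i/L p20 at 74.1% to 78.7% and p30 at 60% to 70.8%, with no overlap between the 3 groups. PKCi/L p20 against a2i/L p20, 2 libraries against 2, was not called at this bin (15.5 points, adjusted p 0.541), and 0 of 11 members were called in that comparison, beside 0.00279% of all bins lower and 0.00558% higher. The quasi-binomial model called 0 members there as well, beside 522 lower and 513 higher of all bins. In limma 3 members had an unadjusted p under 0.05, beside 11283 of all 143333 bins.

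In the other windows no bin was called in PKCi/L p20 by limma. Dlk1-Meg3 bin 3 stood at 35.7% and 46.8%, below all S/L p20 libraries (limma adjusted p 0.163), and bin 4 at 23.5% and 50% (limma adjusted p 0.258). The quasi-binomial model called bin 3 lower (adjusted p 0.0207), beside 149 lower and 9383 higher of all bins. All 3 H19 bins had a higher mean than S/L p20. H19 bin 1 was at 88.3% and 86.8% (adjusted p 0.63) and bin 2 at 70.8% and 85.2% (adjusted p 0.276), both above all S/L p20 libraries, and bin 3 at 75.5% and 79.0% (adjusted p 0.505). The H19 window was 10.0 points higher, without overlap (exact two-sided permutation p 0.1, the smallest possible). Over the 10 members 5 had a higher mean and 5 a lower mean than S/L p20, with a median difference of 0.04 points beside 5.79 points for all bins.

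**Figure D4:**
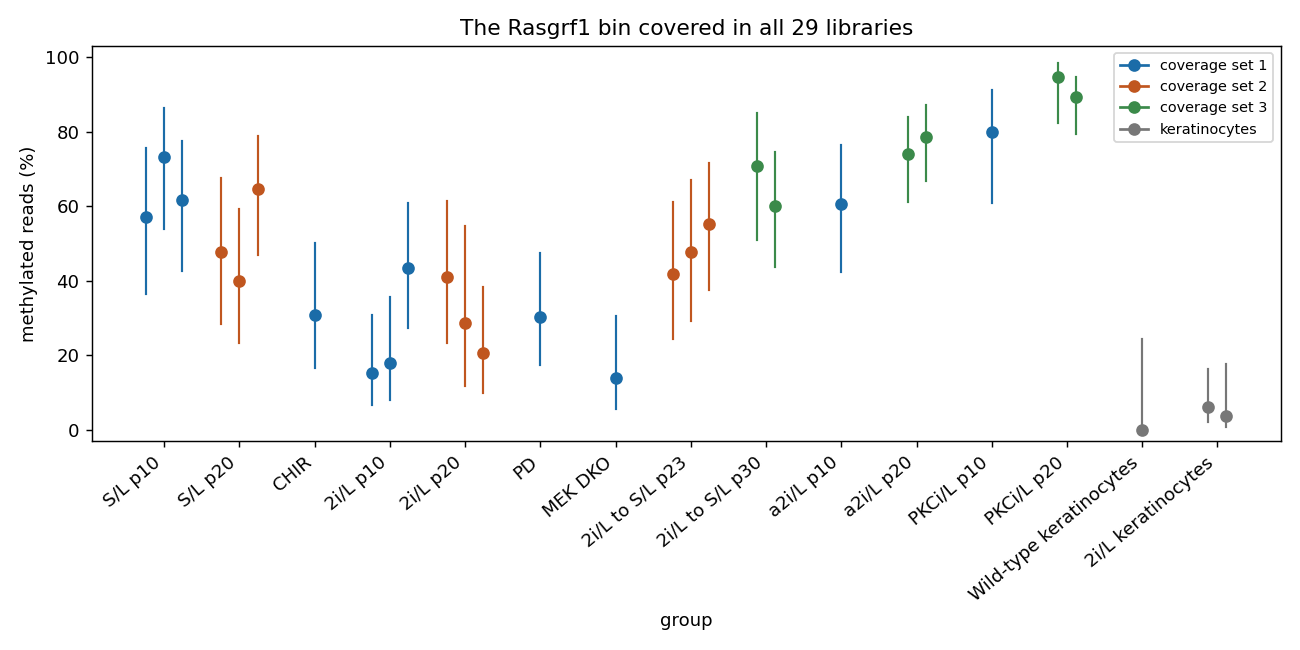
Share of methylated reads (%, vertical axis) in the Rasgrf1 bin in each library by group (horizontal axis), with Wilson 95% counting intervals as lines and the coverage set as colour. The PKCi/L p20 libraries lie at 89.2% and 94.6% and the keratinocyte libraries at 6.0% or below.

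**Figure D5:**
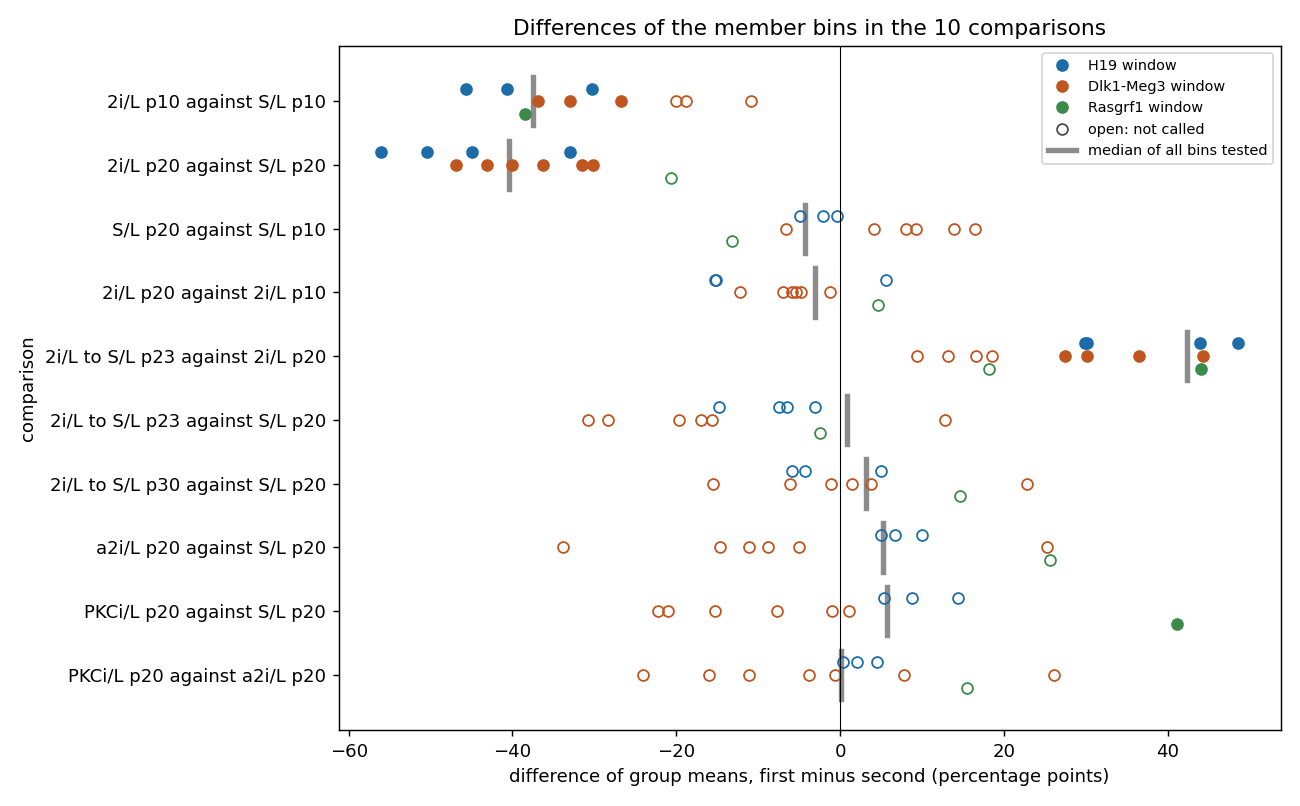
Difference of group means (percentage points, horizontal axis) of each member bin tested in the 10 comparisons (vertical axis), filled where called, with the median of all bins tested as a grey bar. In both 2i/L comparisons with S/L every point lies left of 0, and in the p23 comparison with 2i/L p20 every point lies right of it.

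The single libraries with 1 inhibitor or without Mek are given as values with no replicate check. CHIR lay above PD and MEK DKO at H19 and Dlk1-Meg3, while at Rasgrf1 CHIR and PD were close. The intervals of PD and MEK DKO overlapped at H19 and Rasgrf1. In CHIR, the Gsk3 inhibitor, the H19 window stood at 74.5% (Wilson 95% interval 65.5 to 81.9%) and the Dlk1-Meg3 window at 59.0% (52.2 to 65.4%), the first within the S/L p10 range and the second just above its highest library at 56.0%. The Rasgrf1 bin in CHIR was at 30.8% (16.5 to 50%, 26 reads), below all S/L p10 libraries. In PD, the Mek inhibitor, H19 stood at 22.5% (17.5 to 28.5%), Dlk1-Meg3 at 24.1% (20 to 28.7%) and Rasgrf1 at 30.3% (17.4 to 47.3%). PD was lower than each 2i/L p10 library at H19 and Dlk1-Meg3.

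The MEK DKO library had the lowest level of all groups at H19, 12.9% (8.65 to 18.7%), and at Dlk1-Meg3, 9.61% (6.89 to 13.3%), and measured 13.8% (5.50 to 30.6%) at Rasgrf1. Over the 9 bins read in all libraries it ran from 2.27% (1 of 44 reads) in H19 bin 3 to 25.0% in H19 bin 1. The median of its other bins was 11.5%. Its origin from reprogrammed fibroblasts and its genotype cannot be told apart.

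Keratinocytes lay below the stem cells in S/L at Rasgrf1 and in part of H19, and above them in part of Dlk1-Meg3. The Rasgrf1 bin had 0 of 12 methylated reads in the wild-type library, which allows a share of up to 25.0%, and 3 of 50 and 1 of 28 in the 2i/L libraries. The 2 other Rasgrf1 bins were thinly read: chr9:89773001-89774000 held 8 of 10 methylated reads in the wild-type library and 0 of 10 in the second 2i/L library. H19 bin 2 stood at 27.5% in wild-type and 14.3% and 23.1% in 2i/L keratinocytes, below every S/L library, while H19 bin 3 stood at 70.0%, 58.1% and 65.5%. Dlk1-Meg3 bin 2 was at 90.9%, 83.5% and 80.6%, above each of the 26 stem cell libraries, whose highest was 80.3%. The keratinocyte groups had a lower H19 window than S/L, 45.5% and 39.4% ± 2.8 (n = 2), and a Dlk1-Meg3 window of 68.1% and 64.1% ± 4.7 (n = 2). The labels do not tie the keratinocytes to the animals of the J lines, and the sexes of the keratinocyte groups differ.

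The Meg3 promoter itself, printed above, was read by 4 to 32 reads per library. In S/L p20 it measured 64.7%, 50% and 50%, and in 2i/L p20 38.7%, 8.70% and 5.26%, with no overlap. J-34 was again the highest of the 2i/L p20 libraries. The p23 cells held 23.3%, 43.8% and 37%, below S/L p20, and the p30 libraries 83.3% and 63.2%. In PD 0 of 30 reads and in MEK DKO 0 of 25 reads were methylated, which allows shares of up to 10.0% and 12.0%. S/L p10 was uneven, at 30%, 76.9% and 17.6% from 10 to 17 reads, and its range took in 2i/L p10 at 22.2%, 25% and 31.2% (4 to 18 reads). The libraries of a2i/L p20 (63.2% and 26.7%) and PKCi/L p20 (10% and 70.6%) lay far apart as well. The promoter CpGs at 110779060 and 110779146 held only 11 reads each over all libraries, beside 333 at 110779103 and 185 at 110779129. The wild-type keratinocytes stood at 21.1% (19 reads), and the 2i/L keratinocytes at 11.8% and 57.1%. The promoter of Igf2 placed in the same way by 11 CpGs, outside the windows, was at or below 6.59% in all 29 libraries.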

How the data were processed

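RRBS libraries of 29 samples in 15 groups were analysed; groups came from the titles. The labels' protocols say that reactions were barcoded and then converted and amplified in pools of 12. Per the submitters' processing notes, reads were aligned with BSMAP 2.89 to mm9; what was filtered or trimmed, and the conversion rate, is not given in the sources used here. The deposited tables list each CpG with methylated and all reads in the form of a fraction, and a score that the authors gave, which equals the methylated share times 1000, rounded down. From the read pairs, methylated and all reads were summed over 1 kb bins in each library.

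The 3 windows and all gene lists were chosen with earlier results of these data known. Every bin of a window was accounted for, and library values were given for at most 3 bins per window, those with 10 reads in all 29 libraries and the most reads; Dlk1-Meg3 bins 1 and 4, the Meg3 promoter and bins outside this rule were named after their values were seen. Autosomal bins were tested with limma 3.58.1 in R 4.3.3 (log2 ratio with a pseudocount of 1, 8 replicated stem cell groups, 21 libraries, Benjamini-Hochberg adjustment); keratinocytes, p10 libraries in a2i/L and PKCi/L, CHIR, PD and MEK DKO entered no test. Window levels were compared by exact two-sided permutation in Python 3.11.15. Data were simulated for 2i/L p10 against S/L p10 (20000 bins). There limma recovered 20% of 100 falls of 30 points and 84% of 100 falls of 50 points, with 1 false call. No other simulated bin changed, whereas 68.8% of all bins were called lower in the data. The recovery therefore need not hold for that comparison, but smaller changes can be missed where few bins change. Same-numbered libraries are 1 cell line, which pairs them; all tests were unpaired, and cell line entered as a block in an alternative. Deviations of the same line correlated with r from -0.063 to 0.070 (57 pairs, median 0.005). Promoters came from RefSeq (GRCm38.p6) and were placed by CpG spacing: Meg3, Zrsr1, Plagl1 and 1 of 4 Igf2 promoters were placed, H19, Peg10 and Peg13 had no sequence, and Peg3, Snrpn, Mest, Nap1l5, Nnat and Kcnq1ot1 were not placed. Alternatives changed the read minimum, pseudocount, model, block, libraries in the fit, CpG choice and bin position.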

Additional observations from a re-analysis of the deposited data

How the results depend on the processing

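Under alternatives, 490 values of window comparisons, member counts and window levels were counted as unchanged. For window comparisons this meant direction only, since their exact permutation p cannot fall under 0.05. For member counts it meant a change within 1.5 times. For window levels averaged over groups it meant a shift smaller than the median SD within groups. For single called bins 387 values kept their call. The 5 that lost it are those of the Dlk1-Meg3 bin starting at 110783001. The changes below were in small differences with wide spread, and their cause was not tested unless fewer bins were read. Member counts moved by over 1.5 times, or to or from 0, in 6 of 10 comparisons; within that limit they ran from 6 to 9 for 2i/L p10 against S/L p10 (7) and from 7 to 14 for 2i/L p20 against S/L p20 (10). For the p23 cells against 2i/L p20 the count was 9 and became 5 with a minimum of 20 reads, where fewer bins were tested (8 to 11 without single libraries). The quasi-binomial model called 1 bin for p23 and 1 for p30 against S/L p20, 2 for a2i/L p20 and 2 for PKCi/L p20, in place of 0, 0, 0 and 1. Over all bins that model called 2035 lower and 3886 higher for p23, and 252 lower and 7517 higher for p30. It called 397 lower and 11006 higher for a2i/L p20, and 149 lower and 9383 higher for PKCi/L p20. Bins shifted by 500 bases called 1 for a2i/L p20 and 0 for PKCi/L p20, since the shifted Rasgrf1 bin was not read in all libraries. For 2i/L p20 against 2i/L p10, 0 to 1 bins were called without single libraries. Cell line as a replicate block changed no call among the members (10 of 11 lower for 2i/L p20 against S/L p20); of the window levels it turned Dlk1-Meg3 in a2i/L p20 against S/L p20 from -2.92 to 0.35 points. That difference was 0.27 points with a minimum of 20 reads and -5.69 to 0.35 points without single libraries. With CpG levels averaged, the H19 difference between S/L p20 and S/L p10 was 0.21 points and that between p30 and S/L p20 0.75 points; the latter was 1.02 points with CpGs listed in all libraries and -4.99 to 1.84 points without single libraries. Without single libraries, Dlk1-Meg3 in PKCi/L p20 against a2i/L p20 ran from -5.47 to 0.50 points, and Rasgrf1 from -0.82 to 13.6 points for 2i/L p20 against 2i/L p10 and from -7.85 to 4.41 points for p23 against S/L p20. Where 1 library was left in a group, it was assumed to vary like the others. The Rasgrf1 window had no level over all groups with a minimum of 20 reads or with CpGs listed in all 29 libraries.

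Counts over all bins moved more than those of the members. For p23 against S/L p20, 582 bins were lower and 551 higher, with 8 to 2035 and 6 to 3886 over the alternatives, the fewest without line J-37 at p23. For p30 against S/L p20 the higher bins were 4246 (889 to 7517), for a2i/L p20 8629 (3214 to 11006), for PKCi/L p20 7031 (1771 to 9383), and the lower bins for 2i/L p20 against 2i/L p10 101 (10 to 5575, the most without J-34). The lower bins for S/L p20 against S/L p10 were 10 (2 to 2601, the most with the quasi-binomial model). With 12 to 65 reads per library, the Rasgrf1 window rested on the fewest reads of the 3, and no bin with fewer than 10 reads could be judged.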
